A study of Homo sapiens with 14 samples.

Results

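Oxidative phosphorylation genes were followed in U2OS cells, a human osteosarcoma line, through activation of the transcription factor E2F1 and knockdown of FOXO1 and FOXO3. The genes were chosen by symbol alone, as those starting with NDUFA, NDUFB, NDUFC, NDUFS, NDUFV, SDHA to SDHD, UQCR, CYC1, COX4I, COX5 to COX8 or ATP5. Of the 11963 genes with a probe set that named a single gene, 76 met this rule, through 110 probe sets. They comprised 66 subunits of the respiratory complexes, namely 28 of complex I, 3 of complex II, 7 of complex III, 13 of complex IV and 15 of complex V. The same prefixes also took in 7 assembly factors, the ATP synthase inhibitory factor ATP5IF1, an antisense RNA (NDUFB2-AS1) and a pseudogene (ATP5MC2P1). For each gene the probe set with the highest mean was used, and 71 of the 76 passed a filter on dim signals. The 5 that did not were COX6A2, COX7A1, NDUFAF5, NDUFB2-AS1 and ATP5MC2P1, so the label of subunit genes fits 64 of the 71 genes tested.

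All 14 samples were of 1 cell line, U2OS stably carrying ER-E2F1, a fusion of E2F1 with an estrogen receptor domain that 4-hydroxytamoxifen (OHT) activates. Cells were infected with lentivirus, starved of serum for 24 h and then kept in serum-free medium for 6 h with 20 nM OHT or without it. The viruses carried shFOXO33 or shFOXO707, each aimed at both FOXO1 and FOXO3, or a scrambled hairpin. With OHT there were 2 arrays of shFOXO33, 2 of shFOXO707 and 4 of scrambled cells, and without OHT 1 of shFOXO33, 1 of shFOXO707 and 4 of scrambled cells. Cells without ER-E2F1 were not analysed here, so effects of OHT itself and of E2F1 cannot be told apart. The labels do not say whether arrays of a group were separate cultures, so the p-values below cover only how far these arrays lay apart, and that may be technical.

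Oxidative phosphorylation makes most of the ATP of resting cells. Complex I oxidises NADH and complex II oxidises succinate, and both pass electrons through ubiquinone to complex III, then through cytochrome c to complex IV, which reduces oxygen. Complexes I, III and IV pump protons across the inner mitochondrial membrane, and complex V, the ATP synthase, uses the gradient. Nuclear genes encode all subunits of complex II and most of the others, and their promoters are known for sites of the factors NRF1, GABPA and YY1. E2F1 and the FOXO factors have both been linked to mitochondrial genes.

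RefSeq promoter windows of 300 bases (250 before the gene start and 50 after it, build GRCh38.p14) were found for 66 of the 76 genes, and 6 are shown for the genes on which the results turn. SDHA (chr5:218070-218369, plus strand), COX5A (chr15:74938024-74938323, minus strand) and NDUFAF1 (chr15:41402447-41402746, minus strand) are shown for their differences with OHT. COX7A2L (chr2:42361168-42361467, minus strand) and NDUFS4 (chr5:53560389-53560688, plus strand) are shown for shFOXO33, and NDUFA3 (chr19:54102605-54102904, plus strand) for shFOXO707. Capitals mark matches to the motifs searched, and each sequence runs 5′ to 3′ on the strand of the gene.

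SDHA: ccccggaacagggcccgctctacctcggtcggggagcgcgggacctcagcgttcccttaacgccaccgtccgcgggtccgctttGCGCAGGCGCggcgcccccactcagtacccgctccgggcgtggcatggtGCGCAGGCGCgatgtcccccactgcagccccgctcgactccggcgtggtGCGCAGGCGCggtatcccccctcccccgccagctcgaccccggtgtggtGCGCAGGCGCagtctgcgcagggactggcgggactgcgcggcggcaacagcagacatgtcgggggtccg

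COX5A: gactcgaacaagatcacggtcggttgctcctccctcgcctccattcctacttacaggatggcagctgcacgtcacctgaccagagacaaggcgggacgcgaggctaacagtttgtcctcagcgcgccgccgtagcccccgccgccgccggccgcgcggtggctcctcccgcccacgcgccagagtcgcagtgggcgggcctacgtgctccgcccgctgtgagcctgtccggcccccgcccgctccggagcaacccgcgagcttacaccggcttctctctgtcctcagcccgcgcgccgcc

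NDUFAF1: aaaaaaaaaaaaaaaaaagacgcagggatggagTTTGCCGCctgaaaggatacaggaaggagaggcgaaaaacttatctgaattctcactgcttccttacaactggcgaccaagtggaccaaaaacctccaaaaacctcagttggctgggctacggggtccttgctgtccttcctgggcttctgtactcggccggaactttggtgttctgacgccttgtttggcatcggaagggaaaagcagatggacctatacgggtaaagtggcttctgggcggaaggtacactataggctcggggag

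COX7A2L: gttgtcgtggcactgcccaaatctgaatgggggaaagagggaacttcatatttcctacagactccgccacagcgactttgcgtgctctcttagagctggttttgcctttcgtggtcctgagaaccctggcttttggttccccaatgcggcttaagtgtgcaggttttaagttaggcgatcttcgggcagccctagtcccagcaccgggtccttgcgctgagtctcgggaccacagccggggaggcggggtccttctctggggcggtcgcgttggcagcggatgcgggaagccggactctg

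NDUFS4: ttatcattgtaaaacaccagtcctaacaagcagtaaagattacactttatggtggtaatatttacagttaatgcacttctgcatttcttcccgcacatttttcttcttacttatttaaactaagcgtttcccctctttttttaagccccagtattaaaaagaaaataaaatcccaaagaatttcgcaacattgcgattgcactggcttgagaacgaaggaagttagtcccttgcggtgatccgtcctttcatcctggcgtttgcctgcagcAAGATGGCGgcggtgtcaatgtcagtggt

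NDUFA3: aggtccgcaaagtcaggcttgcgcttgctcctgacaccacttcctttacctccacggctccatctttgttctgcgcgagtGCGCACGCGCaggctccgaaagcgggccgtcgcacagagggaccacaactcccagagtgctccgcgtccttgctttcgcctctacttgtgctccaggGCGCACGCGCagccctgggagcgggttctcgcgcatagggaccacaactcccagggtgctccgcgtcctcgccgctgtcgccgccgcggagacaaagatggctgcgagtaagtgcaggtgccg

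In these windows SDHA had 4 NRF1 matches and NDUFA3 had 2. NDUFAF1 had 1 E2F match, NDUFS4 had 1 YY1 match, and COX5A and COX7A2L had none of the motifs searched. The motifs were searched on both strands, and none overlapped another in the windows shown. Matches describe the letters only. The NRF1 motif (GCGC, any base, then TGCGC) was found in 15 of the 66 windows (22.7%), against 8.57% of the windows of 15842 protein-coding genes. CCGGAAG, of GABPA, was found in 28.8% against 14.2%, and AAGATGGCG, of YY1, in 10.6% against 2.74%. An E2F motif (TTTGGCGC, TTTCCCGC, TTTCGCGC or TTTGCCGC) was found in 8 of the 66 windows (12.1%), against 4.44%. The FOXO motif GTAAACA was in 0 of the 66 windows, against 2.61% of protein-coding genes, which says only that these letters were not in the windows.

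Expression was read as MAS5 signal, the brightness of a probe set on a linear scale in which the trimmed mean of every array was 500. The median signal was 114 to 119 on arrays with OHT and 137 to 143 on those without, and log2 values correlated at 0.992 to 0.994 within groups. As a share of scrambled cells, FOXO1 signal was 32.4% (shFOXO33) and 47.1% (shFOXO707) with OHT, and 47.7% and 37.9% without it. The shares for FOXO3 were 17.1% and 45.1% with OHT, and 30.7% and 60.9% without it. In scrambled cells mean FOXO1 signal was 501 with OHT and 103 without, and that of FOXO3 was 1793 and 449. Knockdown cells with OHT had FOXO1 at 163 (shFOXO33) and 236 (shFOXO707), above scrambled cells without OHT. Their FOXO3 was at 307 and 810, and only shFOXO707 was above scrambled cells without OHT. RNA quality, read as the 3'/5' ratio of the ACTB probe sets, stood at 2.04 and 1.95 in shFOXO707 cells with OHT and 1.49 to 1.74 on the other 12 arrays. The same ratio for GAPDH set them less apart, at 1.11 and 1.04 against 0.98 to 1.10. Of 8 osteoblast markers with a probe set, 6 were above the filter, among them COL1A1, but RUNX2 and IBSP were not. The summed signal of the 8 was 9077 to 9279.9 in shFOXO33 cells, 16041 to 17106 in shFOXO707 cells and 17212 to 18070.5 in scrambled cells with OHT, and 11324, 19277 and 19820.1 to 20299 in the same order without OHT. The members moved unlike each other: in shFOXO33 cells against scrambled cells, the mean signal of SPARC was 804 against 8802 with OHT and 2006 against 9164 without, that of COL1A1 was 7152 against 7428 with OHT and 8335 against 10116 without, and that of ALPL was 233 against 110.4 with OHT. Blood markers above the filter were 0 of 4, striated muscle markers 1 of 7 (ACTC1), epithelial markers 3 of 5 (EPCAM, KRT8 and KRT18) and neural markers 3 of 4 (NEFL, OLIG2 and SNAP25). The summed epithelial signal was 5868 to 6221 in shFOXO33 cells, 3469 to 3556 in shFOXO707 cells and 5154 to 5436 in scrambled cells with OHT, and 7257, 4721 and 6779.6 to 7334 in the same order without OHT. The summed neural signal was 4091 to 4141 in shFOXO33 cells, 4917 to 5003 in shFOXO707 cells and 4761 to 5002 in scrambled cells with OHT, and 2612, 3709 and 2991 to 3389 in the same order without OHT. The part of these markers in the results was not tested.

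**Figure D1:**
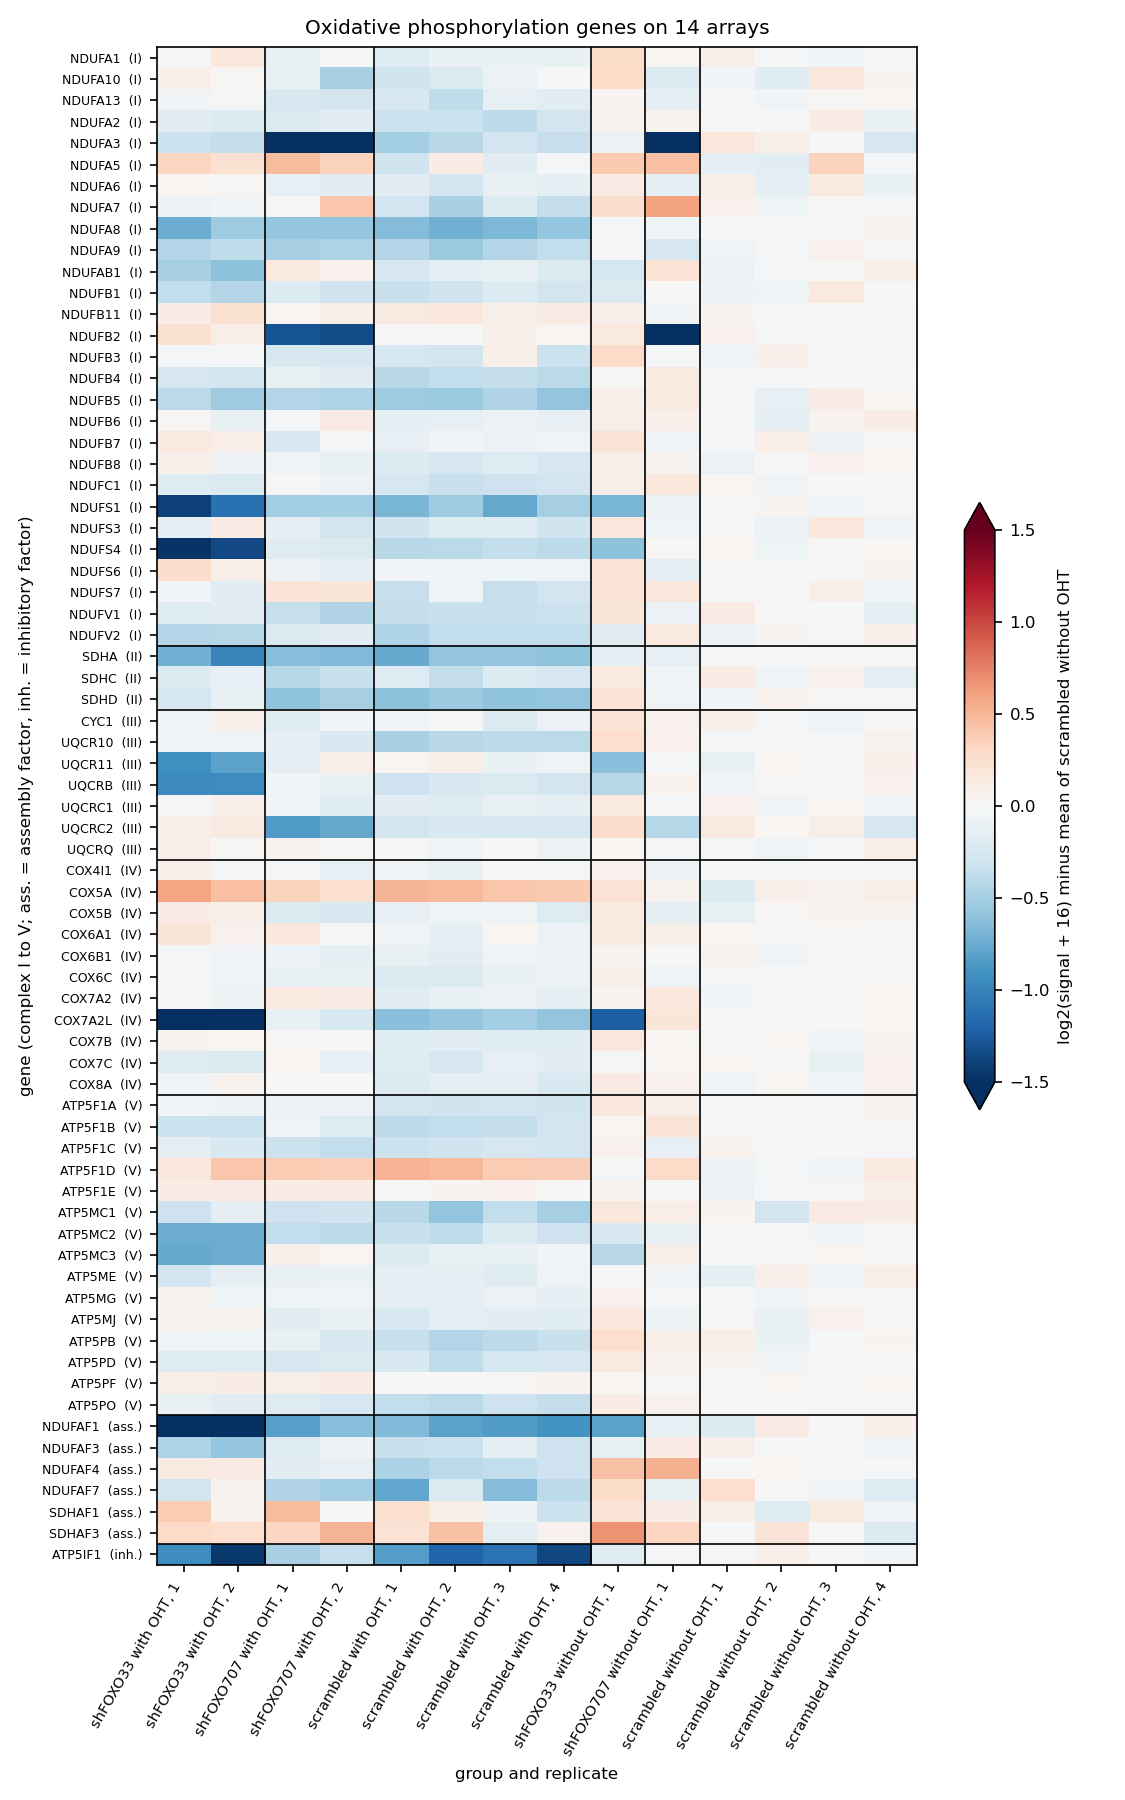
Log2(signal + 16) of the 71 tested genes on each of the 14 arrays (columns, 1 per array), minus the mean of the 4 scrambled arrays without OHT. Blue is lower and red higher, with colours held at -1.5 and 1.5. The darkest cells fall in the shFOXO33 columns (COX7A2L, NDUFS4, NDUFAF1) and the shFOXO707 columns (NDUFA3, NDUFB2).

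With OHT, the median of the oxidative phosphorylation genes in scrambled cells was the same as that of all genes on the deposited scale. SDHA and SDHD of complex II, NDUFA8 and NDUFB5 of complex I and the inhibitory factor ATP5IF1 were lower, while COX5A of complex IV and ATP5F1D of complex V were higher, under each scaling tried. Differences were tested on log2(signal + 16) with limma over 7720 genes and a gene was called where its p, after Benjamini-Hochberg adjustment, was under 0.05. By this test 2 of the 71 genes were higher (2.82%) and 40 were lower (56.3%), against 24% and 46.4% of all genes. The median was -0.23 log2 for the 71 genes and -0.23 for all genes. The downward direction rests on the scaling: after each array was centred on its median, 11 of the 71 were higher and 9 lower (33.3% and 29.8% of all genes). After quantile normalization 4 were higher and 42 lower (27.4% and 40.2% of all genes), and the median was -0.28 for the 71 genes against -0.15 for all genes. On the deposited scale, relative to the median of all genes, 35 of the 71 lay above and 36 below. Only ATP5IF1 differed at least 2-fold, and the differences ran from -1.12 to 0.45, while those of all genes ran from -4.63 to 5.93. In bulk samples less RNA per cell and fewer cells of a type cannot be told apart.

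**Figure D2:**
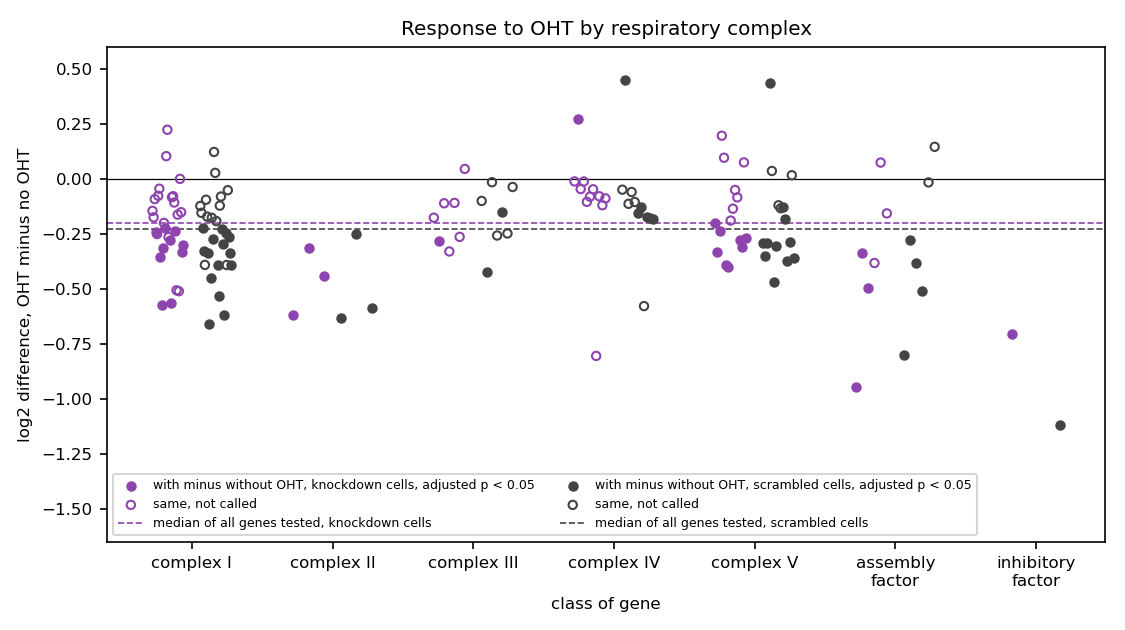
Log2 difference with OHT for each tested gene by complex, in knockdown cells (purple) and scrambled cells (grey). Filled points passed an adjusted p under 0.05, and dashed lines are the medians of all genes, at -0.20 and -0.23. Complex II lies below the dashed lines, and COX5A is the filled point above 0 in complex IV in both kinds of cell.

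Complex II had the lowest median of the complexes, at -0.59 log2 over its 3 measured genes, all of which were called lower (2 after median centring). Of all genes 46.4% were called lower, and 29.8% after centring. SDHA, the flavoprotein that oxidises succinate, had signals of 617, 694, 693 and 689 in scrambled cells with OHT, against 1033, 1058, 1051 and 1066 without OHT. All 4 arrays with OHT lay below all 4 without, and the difference was -0.63 ± 0.08 (SE) log2 (adjusted p = 7.52e-06). SDHD, a membrane anchor, had 1618, 1702, 1628 and 1635 with OHT, against 2415, 2568, 2497 and 2448 without OHT, a difference of -0.59 ± 0.09 (SE) log2 (adjusted p = 7.27e-05). Its groups did not overlap either. After median centring SDHA differed by -0.39 and SDHD by -0.35, and both were still called. SDHC, the other anchor, differed by -0.25 ± 0.08 (SE) log2 (adjusted p = 0.015), but its 4 probe sets ranged from -0.44 to 0.39 and were called both ways, and after centring its chosen probe set differed by -0.01.

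In complex I, 15 of 28 genes were lower (53.6%) and 0 higher, against 46.4% and 24% of all genes. The median was -0.25 log2, near the -0.23 of all genes. After median centring 4 were lower and 1 higher (29.8% and 33.3% of all genes). NDUFA8, an accessory subunit of the membrane arm, had signals of 709.8, 675, 703 and 746 in scrambled cells with OHT, against 1111, 1119, 1111 and 1172 without OHT, a difference of -0.66 ± 0.06 (SE) log2 (adjusted p = 4.71e-07). NDUFB5, another membrane arm subunit, had 1858, 1837, 1971 and 1788 with OHT, against 2674, 2468, 2917 and 2754 without OHT, a difference of -0.53 ± 0.06 (SE) log2 (adjusted p = 2.53e-06). For both genes the groups did not overlap, and after centring the differences were -0.42 and -0.29 and both were called. NDUFS1, the large iron-sulphur subunit that takes electrons from NADH oxidation, had 925, 1033, 872 and 1054 with OHT, against 1479, 1539, 1458 and 1518 without OHT. Its groups were far apart, and the difference of -0.62 ± 0.18 (SE) log2 (adjusted p = 0.00774) missed the threshold after centring (adjusted p = 0.0850). The spread between the hairpins enters the error of that fit. NDUFV1, which binds the flavin at the NADH site, differed by -0.34 ± 0.08 (SE) log2 (adjusted p = 0.00198), and NDUFA9, an accessory subunit near the ubiquinone site, by -0.45.

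Complex III had 2 of 7 genes lower (28.6%) and 0 higher, against 46.4% and 24% of all genes. The median was -0.15 log2, against -0.23 for all genes. After centring 1 was lower and 1 higher (29.8% and 33.3% of all genes). UQCR10, a small subunit, had signals of 3313, 3469, 3518 and 3487 in scrambled cells with OHT, against 4589.9, 4554, 4575 and 4811 without OHT, a difference of -0.42 ± 0.05 (SE) log2 (adjusted p = 8.27e-06) without overlap; after centring it was -0.18 and still called. UQCRC1, a core protein, differed by -0.15 (adjusted p = 0.0416), a call lost in 7 of 14 fits with an array left out, and its direction turned to 0.09 after centring. CYC1, the cytochrome that hands electrons to cytochrome c, differed by -0.10 ± 0.06 (SE) and was not called (adjusted p = 0.163). UQCRB differed by -0.26 and was not called either. Yet its scrambled arrays did not overlap, at 4219 to 4517 with OHT against 5026 to 5490 without. The spread between the hairpins, wide for UQCRB, enters the error of that fit, so the count of called genes may be low for that reason.

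Complex IV had 1 gene higher and 5 lower (45.5%) of 11, against 24% and 46.4% of all genes. The median was -0.13 log2, against -0.23 for all genes. After median centring 4 were higher (36.4%) and 0 lower, against 33.3% and 29.8% of all genes. COX5A, a matrix-side subunit, had signals of 7063, 6901, 6614 and 6466 in scrambled cells with OHT, against 4274, 5202, 5113 and 5234 without OHT. The arrays with OHT all lay above those without, by 0.45 ± 0.08 (SE) log2 (adjusted p = 0.000204). COX4I1 and COX5B, which surround the catalytic core made in the mitochondrion, differed by -0.05 ± 0.05 (SE) and -0.11 ± 0.09 (SE), and neither was called (adjusted p = 0.37 and 0.266). COX7A2L, which joins complexes III and IV into supercomplexes, had 2482, 2544, 2682 and 2524 with OHT, against 3872, 3755, 3778 and 3902 without OHT. Those groups did not overlap, yet the difference of -0.58 ± 0.49 (SE) was not called (adjusted p = 0.302), and the spread between the hairpins, wide for this gene, enters the error of that fit.

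Complex V had 1 gene higher and 10 lower (66.7%) of 15, against 24% and 46.4% of all genes. The median was -0.29 log2, against -0.23 for all genes. After median centring 4 were higher (26.7%) and 1 lower (6.67%), against 33.3% and 29.8% of all genes. ATP5F1D, the delta subunit of the central stalk, had signals of 1227, 1203, 1113 and 1105 in scrambled cells with OHT, against 810.4, 832, 829 and 945 without OHT, a difference of 0.44 ± 0.08 (SE) log2 (adjusted p = 0.000373). All arrays with OHT were above those without, and its other probe set differed by 0.67. ATP5F1A and ATP5F1B, the subunits of the catalytic head, differed by -0.29 ± 0.03 (SE) and -0.35 ± 0.06 (SE) log2 (adjusted p = 4.41e-06 and 0.000226), and by -0.05 and -0.11 after centring, when neither was called. ATP5MG, a membrane subunit, differed by -0.13, but its 4 probe sets ranged from -0.13 to 0.52 and were called both ways.

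Among the genes that help build or restrain the complexes was the lowest difference of all 71. ATP5IF1, which blocks ATP hydrolysis by the ATP synthase when the proton gradient fails, had signals of 457, 351, 373 and 309.8 in scrambled cells with OHT, against 802, 867, 822 and 790.2 without OHT. It differed by -1.12 ± 0.19 (SE) log2 (adjusted p = 0.000144), without overlap, and by -0.88 after centring. NDUFAF1, which assembles the membrane arm of complex I, had 221, 200.0, 194 and 187 with OHT, against 312, 393, 363 and 381 without OHT, and differed by -0.80 ± 0.30 (SE) log2 (adjusted p = 0.0267). That call was lost after centring (adjusted p = 0.116), after quantile normalization (adjusted p = 0.100) and in 6 of 14 fits with an array left out. The scrambled arrays with and without OHT did not overlap, and the spread between the hairpins, wide for NDUFAF1, enters the error of that fit. In all 4 of 6 assembly factors were lower and 0 higher (46.4% and 24% of all genes), among them NDUFAF4 at -0.38. After centring 0 were lower and 1 was higher (29.8% and 33.3% of all genes).

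**Figure D3:**
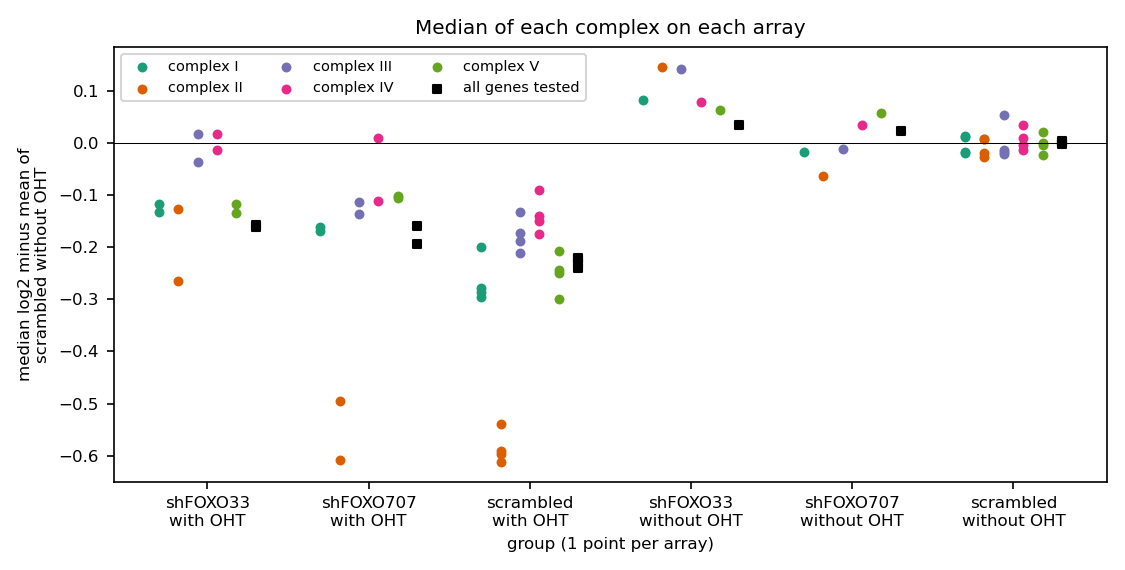
Median log2(signal + 16) of the tested genes of each complex on each array (1 point per array), minus the mean of the 4 scrambled arrays without OHT; black squares are all 7720 genes. On scrambled arrays with OHT the complex II median lay at -0.54 to -0.61 and that of all genes at -0.22 to -0.24.

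In knockdown cells SDHA, NDUFA8 and NDUFB5 were again lower with OHT and COX5A was again higher. Pooled over both hairpins (4 arrays with OHT against 2 without), 1 of the 71 genes was higher (1.41%) and 26 were lower (36.6%), against 20.6% and 37.3% of all genes, and after median centring 13 were higher and 4 lower (29.7% and 21.9% of all genes). SDHA had signals of 634 and 521 in shFOXO33 cells and 672 and 660.4 in shFOXO707 cells with OHT, against 951 and 966 without OHT, a difference of -0.62 ± 0.10 (SE) log2 (adjusted p = 0.000104). NDUFA8 differed by -0.57, NDUFB5 by -0.57 and NDUFAF4 by -0.49, and these stayed called after centring. Of the called genes, NDUFAF1 (-0.95) and ATP5IF1 (-0.71) had the lowest differences. Neither stayed called after centring, and with an array left out the calls were lost in 3 and 1 of 14 fits. SDHD was called lower too, at -0.44, while ATP5F1D, at 0.20, was not called. COX5A had 7433 and 6762 in shFOXO33 cells and 6242 and 5850.4 in shFOXO707 cells with OHT, against 5744 and 5122 without OHT, a difference of 0.27 ± 0.10 (SE) log2 (adjusted p = 0.031). That call was lost after quantile normalization (adjusted p = 0.105) and in 3 of 14 fits with an array left out, 1 of them the shFOXO707 array without OHT (0.19 log2, adjusted p = 0.227). The knockdown response minus the scrambled response was tested as an interaction in limma. It was called for 0 of the 71 genes, against 0.0777% of all genes called higher and 0.272% lower. An unadjusted p under 0.05 was found for 0 of the 71, against 813 of all 7720 genes. A p that misses the threshold does not show that the responses were alike, and knockdown cells without OHT had 2 arrays.

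With the hairpins pooled, knockdown with OHT gave small increases in 15 genes. Of the 71 genes, 15 were higher (21.1%) and 1 was lower (1.41%), against 14.7% and 8.01% of all genes, with a median of 0.08 log2 against 0.04. After median centring 10 were higher and 1 lower (12% and 9.26% of all genes), and with 6 groups 23 were higher and 10 lower (26.4% and 20.7% of all genes). The higher genes comprised 6 of 28 in complex I, 1 of 7 in complex III, 4 of 11 in complex IV, 3 of 15 in complex V and 1 of 6 assembly factors, and 0 of 3 in complex II. NDUFA5, an accessory subunit of the peripheral arm, had signals of 780.3 and 728 with shFOXO33 and 869 and 793 with shFOXO707, against 502, 668, 547 and 610.3 in scrambled cells, a difference of 0.44 ± 0.12 (SE) log2 (adjusted p = 0.0161). All 4 knockdown arrays lay above the 4 scrambled ones. UQCR10 had 4419 and 4481 with shFOXO33 and 4202 and 3949 with shFOXO707, against 3313, 3469, 3518 and 3487 in scrambled cells, a difference of 0.30 ± 0.05 (SE) log2 (adjusted p = 0.00148) without overlap. NDUFA7 (0.41), NDUFAF4, which works on the peripheral arm of complex I (0.38), the iron-sulphur subunit NDUFS7 (0.31; lost in 5 of 14 fits) and the peripheral stalk subunit ATP5PB (0.26) were also higher. The lower gene, ATP5MC2, differed by -0.26 ± 0.08 (SE) log2 (adjusted p = 0.04) and lost its call in 10 of 14 fits with an array left out. Arrays of 1 hairpin counted here as separate replicates of the knockdown.

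Without OHT, pooled knockdown changed 1 of the 71 genes, against 4.84% of all genes higher and 2.97% lower. That fit takes the difference between the hairpins into its error, and with 6 groups 10 of the 71 were higher and 10 lower (15.4% and 15.3% of all genes). The gene called in the pooled fit was NDUFAF4, with signals of 922 in shFOXO33 cells and 981 in shFOXO707 cells, against 672, 690.4, 668 and 663 in scrambled cells, a difference of 0.49 ± 0.10 (SE) log2 (adjusted p = 0.00786). Both knockdown arrays lay above the 4 scrambled ones, and NDUFAF4 was called higher with each hairpin alone in both treatments. In this comparison 8 of the 71 genes had an unadjusted limma p under 0.05, against 1662 of all 7720 genes.

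With the hairpins taken apart, larger differences appeared. shFOXO33 with OHT lowered COX7A2L, NDUFAF1, NDUFS4, UQCR11 and UQCRB, and raised NDUFAF4, SDHD and UQCR10 by less. In limma, 27 of the 71 genes were higher (38.0%) and 11 lower (15.5%) than in scrambled cells with OHT, against 27.8% and 21.5% of all genes. After median centring 18 were higher (25.4%) and 11 lower (15.5%), against 24.0% and 23.3% of all genes, so the share of higher genes was then near that of all genes. COX7A2L had signals of 638 and 714 in shFOXO33 cells, against 2482, 2544, 2682 and 2524 in scrambled cells, a difference of -1.90 ± 0.05 (SE) log2 (adjusted p = 5.34e-13). No other of the 71 genes lay so far below scrambled cells with this hairpin, and the groups were far apart.

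NDUFS4, a complex I accessory subunit mutated in Leigh syndrome, had 492 and 537 in shFOXO33 cells, against 1039, 1053, 1087 and 1060.2 in scrambled cells with OHT (-1.02 ± 0.05 (SE), adjusted p = 7.93e-10). NDUFAF1 had 68.4 and 75.7, against 221, 200.0, 194 and 187 in scrambled cells (-1.30 ± 0.11 (SE), adjusted p = 2.15e-07). In both the shFOXO33 arrays were the lowest. In complex III, UQCR11 had 1140.0 and 1235 with shFOXO33, against 2205, 2283, 2018 and 2078 in scrambled cells, a difference of -0.84. UQCRB had 2686 and 2708 with shFOXO33, against 4219, 4469.6, 4517 and 4328 in scrambled cells, a difference of -0.70; its other 2 probe sets differed by -1.20 and -0.76. UQCRC2, a core protein of the same complex, went the other way, at 1997 and 2055 with shFOXO33, against 1540.2, 1588, 1591 and 1572 in scrambled cells (0.36), so members of 1 complex were called in both directions.

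Further genes lower with shFOXO33 were NDUFS1 (-0.64), ATP5MC3 (-0.63), ATP5MC2 (-0.44) and the mitochondrial acyl carrier protein NDUFAB1 (-0.38). SDHA (-0.22) was lower too, but without the second shFOXO33 array its adjusted p was 0.452. SDHD, in contrast, had 2062 and 2295 with shFOXO33, against 1618, 1702, 1628 and 1635 in scrambled cells with OHT, a difference of 0.40 ± 0.05 (SE) log2 (adjusted p = 1.74e-05) without overlap. The count of higher genes was 15 without the first shFOXO33 array and 18 without the second, against 27 with both.

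**Figure D4:**
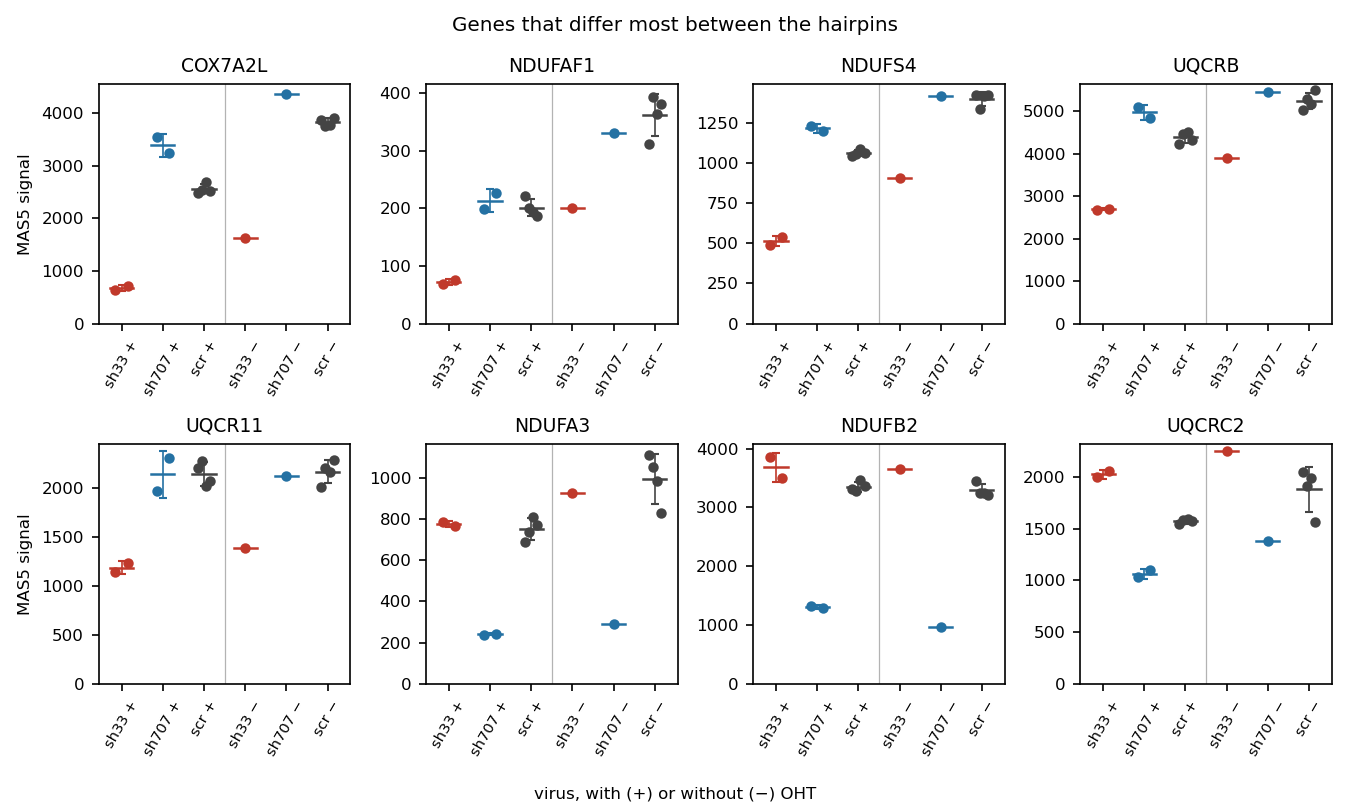
MAS5 signal of the 8 genes that differ most between the hairpins, on every array of the 6 groups (sh33 and sh707, the hairpins; scr, scrambled; + and -, with and without OHT), with the mean and SD where a group has over 1 array. Within each treatment, shFOXO33 arrays lie lowest for COX7A2L, NDUFAF1, NDUFS4, UQCRB and UQCR11, and shFOXO707 arrays lie lowest for NDUFA3, NDUFB2 and UQCRC2.

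shFOXO707 with OHT lowered 3 genes and raised 24 (4.23% and 33.8% of the 71), against 17.2% and 24.6% of all genes. The 3 were NDUFA3 and NDUFB2, both accessory subunits of the complex I membrane arm, and UQCRC2. NDUFA3 had signals of 237 and 244 in shFOXO707 cells, against 689, 739, 809 and 774 in scrambled cells with OHT, a difference of -1.58 ± 0.10 (SE) log2 (adjusted p = 6.09e-09). NDUFB2 had 1329 and 1285, against 3309, 3276, 3463 and 3362 in scrambled cells, a difference of -1.35 ± 0.05 (SE) log2 (adjusted p = 1.05e-11), and its other probe set differed by -1.43. UQCRC2 had 1030.3 and 1095, against 1540.2, 1588, 1591 and 1572 in scrambled cells, a difference of -0.56 ± 0.08 (SE) log2 (adjusted p = 5.52e-05). In all 3 genes the shFOXO707 arrays lay below every scrambled array.

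The highest difference with shFOXO707 was in ATP5IF1, with 581 and 639.8, against 457, 351, 373 and 309.8 in scrambled cells with OHT (0.70 ± 0.14 (SE), adjusted p = 0.000723). NDUFA7 (0.56), NDUFA5 (0.51), NDUFS7 (0.45) and COX7A2L (0.40) were also higher. COX7A2L had 3541 and 3234 in shFOXO707 cells, against 2482, 2544, 2682 and 2524 in scrambled cells. Without the first shFOXO707 array 15 genes were higher, against 24 with both. These were the 2 arrays with the ACTB 3'/5' ratios of 2.04 and 1.95. The single shFOXO707 array without OHT, at 1.64, gave differences of -1.76 for NDUFB2 and -1.72 for NDUFA3. Its ratio was also the highest without OHT, where scrambled arrays reached 1.59 and the shFOXO33 array had 1.49. The hairpin and the ratio thus went together in both treatments, and the part of RNA quality in these differences was not tested.

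The hairpins were also set against scrambled cells without OHT, on other arrays. For shFOXO33, 9 genes were lower in both treatments, 81.8% of the 11 with OHT and 90% of the 10 without (1 array against 4, chosen after the data were seen). Over all genes the shared lower ones were 54.7% of those with OHT and 79.5% of those without, and whether the genes here differ from that was not tested. The 9 were COX7A2L, NDUFAF1, NDUFS4, UQCR11, UQCRB, NDUFS1, ATP5MC3, ATP5MC2 and NDUFAB1. Without OHT, COX7A2L had 1626 with shFOXO33, against 3872, 3755, 3778 and 3902 in scrambled cells, a difference of -1.23 ± 0.07 (SE) log2 (adjusted p = 4.55e-09). NDUFS4 had 906, against 1419, 1332, 1412 and 1419 (-0.61), and NDUFAF1 had 199.8, against 312, 393, 363 and 381 (-0.81). For each of these genes the single shFOXO33 array lay below all 4 scrambled arrays.

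For shFOXO707 without OHT, NDUFB2, NDUFA3 and UQCRC2 were again lower, all of the 3 with OHT and 75.0% of the 4 without, against 52.6% and 69.7% over all genes. NDUFB2 had 960.1 with shFOXO707, against 3442, 3245, 3249 and 3221 in scrambled cells, a difference of -1.76 ± 0.06 (SE) log2 (adjusted p = 2.69e-11). NDUFA3 had 289, against 1114, 1057, 987 and 829 in scrambled cells, a difference of -1.72 ± 0.13 (SE) log2 (adjusted p = 8.9e-08). The other gene lower without OHT was NDUFA9, at -0.26. Of the genes higher with shFOXO33, 8 were higher in both treatments (29.6% of 27 with OHT and 88.9% of 9 without). For shFOXO707, 6 were higher in both treatments (25.0% of 24 with OHT and 85.7% of 7 without). Over all genes the shared higher ones were 37.6% of those with OHT and 72.0% of those without for shFOXO33, and 38.9% and 65.5% for shFOXO707. Over all genes, 14.6% were higher and 14.8% lower with shFOXO33 without OHT, and 14.6% and 13% with shFOXO707.

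**Figure D5:**
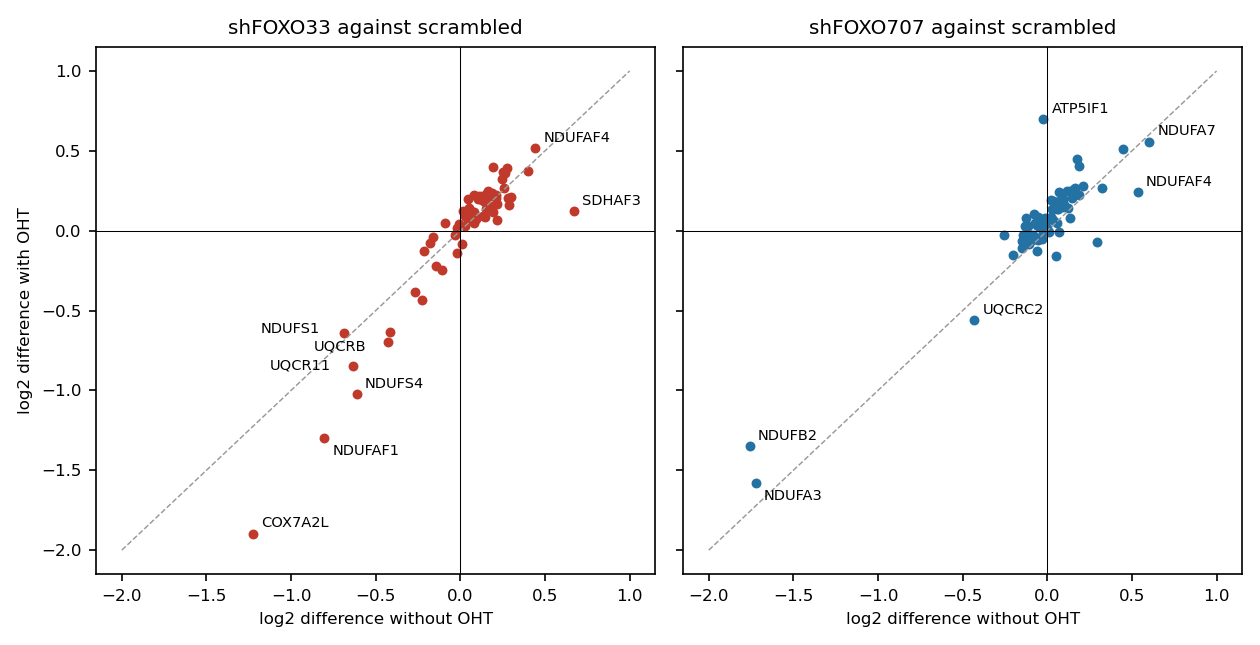
Log2 difference of each tested gene with OHT (vertical) against the same hairpin's difference without OHT (horizontal), for shFOXO33 and shFOXO707 against scrambled cells; the dashed line marks equal values. COX7A2L lies at -1.23 and -1.90 with shFOXO33, and NDUFB2 at -1.76 and -1.35 with shFOXO707, each pair without and with OHT.

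Between the hairpins themselves with OHT (shFOXO707 minus shFOXO33, 2 arrays each), 17 of the 71 genes were higher (23.9%) and 16 lower (22.5%), against 22.1% and 21.4% of all genes. These shares were near those of all genes. COX7A2L differed by 2.30 ± 0.06 (SE) log2 (adjusted p = 2.68e-13), with 3541 and 3234 in shFOXO707 cells and 638 and 714 in shFOXO33 cells. NDUFAF1 (1.38), NDUFS4 (1.21), UQCRB (0.88), UQCR11 (0.84) and ATP5MC3 (0.80) followed. On the other side stood NDUFA3 (-1.63), NDUFB2 (-1.48) and UQCRC2 (-0.92), then NDUFA10 (lost in 3 of 14 fits), SDHD and COX5B at -0.36, -0.36 and -0.33. The hairpins, aimed at the same genes, thus stood on either side of scrambled cells for COX7A2L, which was -0.75 when they were pooled and was then not called (adjusted p = 0.293). Whether these genes follow FOXO1 and FOXO3 or each hairpin's other targets was not tested.

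The response to OHT was also set against that of scrambled cells for each hairpin alone, each resting on 1 array without OHT. With shFOXO33 arrays alone, the limma interaction was -0.67 log2 for COX7A2L (adjusted p = 0.000582), -0.41 for NDUFS4 (adjusted p = 0.0168) and -0.27 for UQCRB (adjusted p = 0.0407). With shFOXO707 arrays alone, it was 0.72 for ATP5IF1 (adjusted p = 0.0336) and 0.41 for NDUFB2 (adjusted p = 0.00550). Over all genes this interaction was called higher for 3.3% and lower for 3.74% with shFOXO33 arrays, against 0 and 3 of the 71 genes, and for 2.85% and 2.9% with shFOXO707 arrays, against 2 and 0 of the 71. The genes were picked by this test, and the spread of the lone array was taken from the other groups.

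The other subunits mostly moved by less. After median centring, 10 of the 42 genes called with OHT in scrambled cells turned their direction, 1 of them being called higher, and so did 4 of the 27 called in knockdown cells. In complex I, NDUFV2, which pairs with NDUFV1 at the NADH site, differed by -0.39 log2 with OHT in scrambled cells and by -0.30 in knockdown cells, and both were called. NDUFB4 (-0.39 and -0.28), NDUFA2 (-0.33 and -0.24), NDUFC1 (-0.30 and -0.24) and NDUFB1 (-0.28 and -0.22), all accessory subunits, were called in both. NDUFS3, which lies on the way to ubiquinone, NDUFB8 and NDUFA13 were called in scrambled cells alone, at -0.25, -0.23 and -0.22, and whether their responses differ between the cells rests on the interaction, which was not called. NDUFA1, NDUFA6, NDUFB3, NDUFB6, NDUFB7, NDUFB11 and NDUFS6 were not called in either, with differences between -0.19 and 0.12 in scrambled cells.

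With shFOXO33 and OHT, NDUFS3 (0.23), NDUFB8 (0.23), NDUFS6 (0.22), NDUFA1 (0.20), NDUFA6 (0.20), NDUFA13 (0.20) and NDUFB7 (0.20) were higher than in scrambled cells. With shFOXO707 and OHT, NDUFC1 (0.27), NDUFB4 (0.25), NDUFV2 (0.21), NDUFB6 (0.18) and NDUFB8 (0.14) were higher. NDUFB4 and NDUFB8 were called higher in the pooled comparison too, at 0.19 and 0.18.

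In complexes III and IV, UQCRQ, a small subunit, was called in none of these comparisons, and its differences lay between -0.04 and 0.09. On the deposited scale COX7B, COX7C and COX6C were lower with OHT in scrambled cells, at -0.17, -0.18 and -0.15, and none was called in knockdown cells. All of them turned direction in scrambled cells after median centring. After centring, 7 of the 11 complex IV genes were called higher with OHT in knockdown cells (63.6%) and 0 lower, against 29.7% and 21.9% of all genes. COX7B was higher with knockdown and OHT, at 0.20 ± 0.04 (SE) (adjusted p = 0.00275). In complex V, the peripheral stalk subunits ATP5PO and ATP5PD and the central stalk subunit ATP5F1C were lower in scrambled cells given OHT (-0.36, -0.29 and -0.29) and in knockdown cells (-0.27, -0.31 and -0.24). ATP5F1C turned direction in knockdown cells after centring. ATP5F1E, ATP5PF and ATP5ME were called in neither, at 0.04, 0.02 and -0.13 in scrambled cells. ATP5PO was also higher with knockdown and OHT, at 0.18, and ATP5MJ with shFOXO33 and OHT, at 0.24.

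Of the other assembly factors, NDUFAF3, which works with NDUFAF4, was lower in scrambled cells given OHT (-0.28), in knockdown cells given OHT (-0.34), and with shFOXO33 and OHT (-0.24). NDUFAF7, which methylates a complex I subunit, was lower with OHT in scrambled cells (-0.51). SDHAF3, which helps build complex II, was higher with shFOXO33 without OHT (0.67, 1 array) and not called with it (0.12, adjusted p = 0.493). SDHAF1, of the same role, was called in no comparison by its chosen probe set, but its other probe set was higher with OHT, by 0.37 in scrambled cells (limma adjusted p = 0.00365) and by 0.33 in knockdown cells (adjusted p = 0.0316).

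Isoform families were described apart, since tissues use different copies. The muscle isoforms COX6A2 and COX7A1 were below the filter in every comparison, and the liver-type or common copies COX6A1, COX7A2 and COX8A were measured. COX6A1 was higher with knockdown and OHT by 0.17 ± 0.05 (SE), COX7A2 by 0.18 ± 0.05 (SE) and COX8A by 0.18 ± 0.04 (SE) log2 (adjusted p = 0.0199, 0.0254 and 0.00984). COX6A1 and COX7A2 lost this call after median centring and each in 4 of 14 fits with an array left out. COX6B1 was not called in any comparison, and its differences ran from -0.11 to 0.07.

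The genes ATP5MC1, ATP5MC2 and ATP5MC3 encode the same mature ring subunit of the ATP synthase with different import sequences, and they did not move alike. With shFOXO33 and OHT, ATP5MC3 had 3191 and 3206, against 4650.0, 5000.4, 4986 and 5256 in scrambled cells, a difference of -0.63 ± 0.05 (SE) log2 (adjusted p = 2.3e-08). ATP5MC2 had 2719.5 and 2708, against 3615, 3489.8, 3942 and 3677 in scrambled cells, a difference of -0.44 ± 0.05 (SE) log2 (adjusted p = 1.81e-06). ATP5MC1, at 0.25 ± 0.10 (SE), was not called (adjusted p = 0.0554). With shFOXO707 and OHT, ATP5MC3 was higher (0.17), a call lost without the first shFOXO707 array, and neither other copy was called.

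Knockdown with OHT raised ATP5F1A, of the catalytic head, by 0.22 ± 0.03 (SE) log2 (adjusted p = 0.000769) over both hairpins. ATP5F1A had signals of 7310.1 and 7115 with shFOXO33 and 7057 and 7050.3 with shFOXO707, against 6144, 6109, 6182 and 6117 in scrambled cells, without overlap. ATP5F1B was higher with shFOXO707 (0.23 ± 0.05 (SE), adjusted p = 0.00134) and not called with shFOXO33 (0.03). COX4I1 and CYC1 were called in no comparison by their chosen probe sets. Another bright probe set of COX4I1 was higher with OHT in scrambled cells, by 0.20 (limma adjusted p = 0.00409), where the chosen one differed by -0.05. COX5B was higher with shFOXO33 and OHT (0.22), and so was NDUFV1 (0.16), a call lost in 8 of 14 fits with an array left out. COX4I1 had 8006 and 7544 with shFOXO33 and 7452 and 6983 with shFOXO707, against 7351, 7051, 7614 and 7437 in scrambled cells, and the groups overlapped. SDHB and UQCRFS1 were not analysed here.

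Related genes outside the prefixes were counted from 4 lists with measured members, beside 24% higher and 46.4% lower of all genes with OHT in scrambled cells (33.3% and 29.8% after median centring). Of 28 assembly factors, 6 of them counted above, 3 were higher and 19 lower with OHT in scrambled cells (5 and 10 after median centring). TMEM70, which assembles the ATP synthase, rose by 1.51 log2 and SCO2, which delivers copper to complex IV, by 1.82. DMAC2 went with the larger part of the list, at -0.87. Regulators of mitochondrial transcription had 3 higher and 12 lower of 19 (4 and 9 centred), with the mitochondrial transcription factor TFB2M at -1.53 and YY1 at 1.08. The citric acid cycle list had 1 higher and 8 lower of 15 (2 and 7 centred), with PDHB, of pyruvate dehydrogenase, at -1.19. Carriers and ubiquinone genes had 2 higher and 14 lower of 18 (3 and 6 centred), with the ADP/ATP carrier SLC25A4 at 1.43 and COQ10B at -1.66. The medians of the 4 lists were -0.50, -0.47, -0.28 and -0.38 in that order, beside -0.23 for all genes.

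With knockdown and OHT the same lists had 7 higher and 2 lower of 28, 5 and 0 of 19, 1 and 2 of 15, and 4 and 1 of 18, against 14.7% higher and 8.01% lower of all genes. POLG, the mitochondrial DNA polymerase, was higher by 0.91 log2 (limma adjusted p = 0.00106). In the citric acid cycle list shFOXO33 with OHT had 3 higher and 7 lower of 15 (27.8% and 21.5% of all genes), and shFOXO707 had 6 higher and 3 lower (24.6% and 17.2% of all genes). SUCLA2, a subunit of succinyl-CoA ligase, fell by 1.25 log2 with shFOXO33 and DLST, of the 2-oxoglutarate dehydrogenase complex, fell by 0.70 with shFOXO707, both with OHT. CYCS, cytochrome c itself, differed by -0.23 with shFOXO33 and by 0.34 with shFOXO707, and both were called. None of the 13 subunits encoded in mitochondrial DNA had a probe set that named a single gene, so they were not analysed here.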

How the data were processed

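The authors deposited 1 table of MAS5 signal, a linear intensity per probe set of an Affymetrix expression array, for all 14 arrays; MAS5 is named in the submitters' processing notes and the sources used here do not give its version. In the deposited intensity values the mean of each array, with 2% trimmed at either end, was 500. Of 22277 probe sets, 62 were array controls and 19064 named 1 gene, of which 19052 symbols were updated by Entrez identifier through RefSeq's GRCh38.p14 table.

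The oxidative phosphorylation genes, the related lists and the tests were chosen with earlier results of these data known. Signals were taken as log2(signal + 16), without further scaling. Probe sets whose mean was under the 40th percentile (6.57 log2, a signal of 79.1) were left out, which kept 11438 probe sets of 7720 genes, 1 per gene by highest mean. limma 3.58.1 in R 4.3.3 was fitted to all arrays (lmFit, eBayes with trend), with 4 groups for pooled hairpins and 6 groups for single hairpins, and Benjamini-Hochberg adjustment ran over the 7720 genes. The fit was tested on simulated data. The single-hairpin comparisons without OHT were added after the data were seen and rest on 1 array, assumed to vary like the other groups. Comparisons within a treatment share the scrambled arrays.

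All 71 tested genes are described; those given in detail were, in each comparison, up to 6 called genes with the largest change each way, the core members of each complex and the isoform families, with up to 3 genes of each related list by adjusted p. Genes outside that rule are given after their values were seen. Same-numbered arrays did not deviate together (correlations of -0.060 to 0.047 across genes), so the numbers were not used as pairs. Alternatives covered the pseudocount (1), the filter, median centring, quantile normalization, the choice of probe set, the trend, single hairpins, the replicate block and leaving out each array. Precision is limited by the number of arrays. The 10 probe sets naming several genes, SDHB, UQCRFS1 and NDUFA4 were not analysed here.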

Additional observations from a re-analysis of the deposited data

Results flagged for a closer look

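A single scrambled array stood apart from the other 3 of its group for 13 of 142 gene and group combinations, where chance gives about 1 in 20. With OHT these were a signal of 616.5 for SDHA, 2759 for NDUFA1, 6133 for ATP5MG, 4063 for ATP5PD, 493 for NDUFAF3, 1712 for NDUFB3 and 1949 for NDUFV2. Without OHT they were 4274 for COX5A, 944.7 for ATP5F1D, 1172 for NDUFA8, 3443 for NDUFB2, 1332 for NDUFS4 and 4811 for UQCR10. The calls for SDHA, NDUFA8, UQCR10, COX5A and ATP5F1D with OHT in scrambled cells held with each array left out.

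The effects of the hairpins with OHT differed between shFOXO707 and shFOXO33 for 33 of the 71 genes, by limma's test of that difference, a share near that of all genes. For the higher ones the difference, shFOXO707 minus shFOXO33, was 2.30 for COX7A2L, 1.38 for NDUFAF1, 1.21 for NDUFS4, 0.88 for UQCRB, 0.84 for UQCR11, 0.80 for ATP5MC3, 0.78 for ATP5IF1, 0.74 for NDUFS1 and 0.66 for NDUFAB1. It was 0.39 for NDUFAF3, 0.36 for ATP5MC2, 0.25 for NDUFV2, 0.20 for ATP5F1B, 0.18 for NDUFC1, 0.16 for COX7A2, 0.16 for COX7C and 0.12 for NDUFB4. For the lower ones it was -1.63 for NDUFA3, -1.48 for NDUFB2, -0.92 for UQCRC2, -0.36 for NDUFA10, -0.36 for SDHD, -0.33 for COX5B, -0.29 for NDUFS6 and -0.28 for NDUFAF4. It was -0.25 for NDUFB7, -0.23 for COX5A, -0.23 for NDUFA13, -0.21 for NDUFV1, -0.21 for SDHC, -0.19 for ATP5MJ, -0.15 for ATP5F1C and -0.13 for UQCR10. These rest on 2 arrays per hairpin, and the cause was not tested.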

How the results depend on the processing

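Counts below are of the 71 genes. Where no share of all genes stands beside a count, a change in it cannot be told from a change over all genes. Median centring took OHT in scrambled cells to 11 higher and 9 lower, against 2 and 40, and OHT in knockdown cells to 13 and 4, against 1 and 26, where the medians of all genes were -0.23 and -0.20 log2 before centring and 0.01 and 0.04 after it. It took the genes higher with shFOXO33 and OHT to 18, against 27 (24.0% of all genes after centring and 27.8% before). Those higher with shFOXO707 without OHT went to 2, against 7 (12.7% of all genes after centring and 14.6% before). Quantile normalization gave 4 higher and 42 lower with OHT in scrambled cells (27.4% and 40.2% of all genes). It gave 0 higher when knockdown cells got OHT (23.0% of all genes) and 0 lower with knockdown and OHT (7.75% of all genes). Under it 3 were higher with knockdown without OHT, and 11 higher with shFOXO707 without OHT. Without the filter, knockdown with OHT had 0 lower and shFOXO707 without OHT 4 higher. Without the trend, knockdown with OHT had 0 lower, shFOXO33 without OHT 4 higher (against 9) and shFOXO707 without OHT 2 higher. Without _x_at probe sets, 5 were higher with OHT in scrambled cells and 2 with knockdown without OHT; with the mean of probe sets 2 were higher with OHT in knockdown cells; with subunits only, knockdown without OHT had 0 higher.

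With 6 groups in place of 4, OHT in knockdown cells had 3 higher, knockdown with OHT 23 higher and 10 lower, and knockdown without OHT 10 higher and 10 lower. With shFOXO33 arrays only, these were 2 higher for OHT in knockdown cells, 27 and 11, and 9 and 10, and the interaction had 3 lower; with shFOXO707 only, 24 and 3, and 7 and 5, and the interaction had 2 higher. The replicate block and the same arrays without it each gave 0 higher and 0 lower for knockdown with OHT, so the smaller set of arrays, not the block, ends those calls.

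Among the genes singled out by the naming rule, directions that reversed were, with OHT in scrambled cells, ATP5MG (0.11 after centring, 0.0398 by the mean of probe sets, 0.52 without _x_at), COX7A2 (0.11), COX8A (0.0612) and UQCRC1 (0.0894) after centring, and SDHC (0.39 without _x_at). With OHT in knockdown cells they were ATP5F1A (0.0387) and NDUFC1 (0.00101) after centring, and SDHC (0.0469 without _x_at). Without _x_at, ATP5MG was -0.0214 with shFOXO33 and OHT, and SDHC was 0.17 in the hairpin difference. Over all 71 genes, centring also turned the called ATP5MJ, COX6C, COX7B, COX7C, NDUFA13 and NDUFB8 in scrambled cells, and ATP5F1C and NDUFB1 in knockdown cells; no call of the hairpin comparisons was turned by it. The cause was not tested.

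With each array left out in turn, the higher and lower counts ran from 2 to 3 and 33 to 42 for OHT in scrambled cells, 0 to 2 and 19 to 28 for OHT in knockdown cells, 10 to 16 and 0 to 3 for knockdown with OHT, 1 to 2 and 0 to 1 for knockdown without OHT, and 0 to 0 and 0 to 0 for the interaction. They ran from 15 to 28 and 10 to 12 for shFOXO33 with OHT, 15 to 25 and 3 to 4 for shFOXO707 with OHT, 8 to 12 and 9 to 11 for shFOXO33 without OHT, 3 to 7 and 4 to 5 for shFOXO707 without OHT, and 13 to 19 and 9 to 16 for the hairpin difference. The hairpin difference had 9 lower without the second shFOXO707 array with OHT, and shFOXO707 without OHT had 3 higher without the second scrambled array without OHT.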
